A study of Canis lupus familiaris with 12 samples.

Results

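The microRNAs described here were carried by exosomes from epicardial fat of the left atrium in beagle dogs, and dogs with rapid atrial pacing for 2 weeks were compared with dogs after a sham operation. Each arm had 3 exosome libraries, 6 of the 12 samples of the study, which also sequenced hippocampal mRNA and asked how atrial fibrillation relates to cognitive impairment. Dogs were assigned to the arms at random, per the design text. No allele, agent or age is given in the labels, which name only the breed, tissue and procedure and do not say whether each sample came from a separate dog. The p-values therefore refer to differences between samples, which may not be separate dogs. For limma they rest on the variance of miRNAs of like abundance, not on each miRNA's own spread. The miRNAs were chosen as the rows with a dog miRNA name whose mean over the 6 libraries reached 100 RPM, reads in 1000000 listed reads, in the deposited values. Of 321 rows in the table, 178 carried such a name and 108 passed the minimum. The direction of change did not enter the choice. Other values below were rescaled to 1000000 reads of named miRNAs in each library and are written as RPM.

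Epicardial fat lies directly on the heart muscle, without a separating fascia, and holds adipocytes together with stromal, endothelial and immune cells. Exosomes are small vesicles that cells release and that carry RNA, among it miRNAs. A miRNA pairs through its seed, a short stretch near the 5′ end, with sites in messenger RNAs and lowers their translation and stability, and miRNAs with the same seed can act on overlapping targets. Mature sequences were not used here, so the miRNAs are grouped by family name. Names are printed as the table gives them, without the species prefix.

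The libraries were shallow. They held 12159 to 25171 listed reads, of which 5009 to 19448 fell on named miRNAs. Of listed reads, named miRNAs took 50.5 ± 10.1% under pacing and 54.8 ± 20.7% after sham operation (SD, n = 3 in either arm). An exact two-sided permutation test gave p = 0.9, where 3 against 3 cannot go below 0.1. One read was worth 51.4 RPM in sham replicate 2, the deepest library, and 199.6 RPM in pacing replicate 2, the shallowest. Of the 108 miRNAs, 83 had reads in all 6 libraries, and 98 to 108 were seen in any 1 library. None was without reads in a whole arm. They held between 9 and 8988 reads over the 6 libraries, with a median of 58. Just inside the minimum stood miR-486, at a deposited mean of 102 RPM and 10 reads in all, and just outside stood miR-222 at a deposited 98.7 RPM and 8 reads. No library pair agreed within sampling noise: the chi-square statistic divided by its degrees of freedom was 3.05 at the least and 10.5 at the most. Across the 108 miRNAs libraries correlated at Pearson r of 0.865 to 0.940 (log2 values, a description).

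A few miRNAs made up most of the cargo. The 3 most abundant, miR-199, let-7a and miR-125b, took 45% of named reads, the 10 most abundant 73.3% and the 16 above 10000 RPM 83.6%. miR-199, a miRNA of fibroblasts and smooth muscle, led the list with 156598, 162907 and 189851 RPM in pacing replicates 1 to 3 and 226595, 169683 and 140762 in sham replicates 1 to 3. let-7a, of the large let-7 family that is high in differentiated cells, stood between 149777 and 157716 in pacing and between 141738 and 165364 in sham. For both, the pacing values lay within the range of the sham values.

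**Figure D1:**
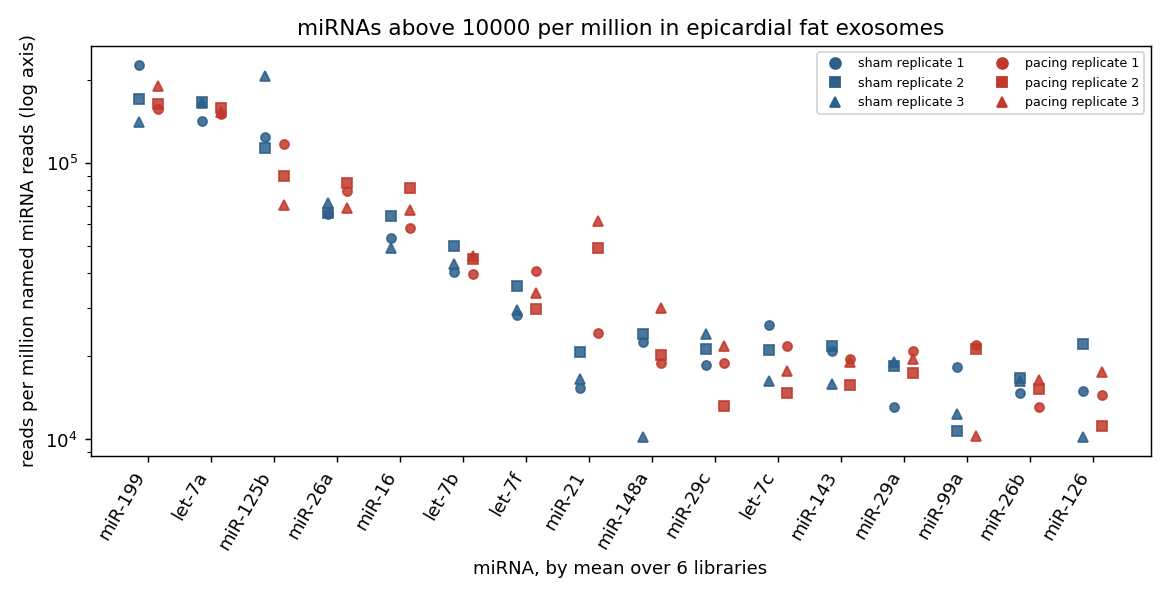
RPM (log axis) of the 16 miRNAs above 10000 RPM, in 3 sham libraries (blue) and 3 pacing libraries (red). Most columns overlap between arms, while the 3 pacing points of miR-21, from 24220.5 to 61877 RPM, lie above its 3 sham points.

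Below these came miR-26a at 79065, 84248 and 68675 RPM in pacing and 65274, 65817 and 71616 in sham. miR-16, of a family that restrains the cell cycle, stood at 58046, 80854 and 67619.8 against 53711, 64325 and 49082. In both, 2 of 3 pacing libraries lay above every sham library. let-7b stood at 39671, 44919 and 46056 against 40470.0, 49928 and 43217, and let-7f at 40507, 29746 and 33751 against 28161, 35993 and 29479.9. miR-148a stood at 18931, 20164 and 29767 against 22566, 24116 and 10187, with sham replicate 3 the lowest library. miR-29c, whose family acts on extracellular matrix messages, stood at 18931, 13176 and 21798 against 18649.8, 21288 and 24078. In each of these 6 the arms overlapped and the adjusted p was 0.944 or more (limma). The spread between libraries followed abundance: the median coefficient of variation was 16.2% in pacing and 16.1% in sham for the 16 miRNAs above 10000 RPM, and 59.6% and 54.4% for the 50 under 1000 RPM.

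The comparison of arms asked which exosomal miRNAs differed after pacing. miR-21, a miRNA widely studied in fibrosis and inflammation, rose in pacing and was the 1 miRNA past the threshold. It stood at 24220.5, 49112 and 61877 RPM in pacing replicates 1 to 3 and at 15293, 20671 and 16515 in sham replicates 1 to 3. All 3 pacing libraries lay above all 3 sham libraries, pacing replicate 1 by the smallest margin. The arm means were 45069.8 ± 19151 and 17493 ± 2819 (SD, n = 3 each), a ratio of 2.58. The log2 difference was 1.27 with a standard error of 0.25 and an adjusted p of 6.71e-05 (limma on log2 of the value plus 100, Benjamini-Hochberg over 171 named miRNAs). The call rests on 948 reads in pacing and 591 in sham, a ratio of read shares of 2.42 with an exact 95% interval of 2.18 to 2.69 that covers counting error only. MIR21 is listed on chromosome 9 from 34340550 to 34340609, plus strand, of CanFam3.1.

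The miR-21 call depended on the setting. Over 20 alternative settings its log2 difference ran from 0.99 to 1.66, and it passed in 9 of them, among them edgeR's quasi-likelihood test on reads (adjusted p = 3.58e-05) and DESeq2 (adjusted p = 0.0101). In the limma fit the variance came wholly from the trend over miRNAs of like abundance, and with no trend the adjusted p was 0.659. Leaving out 1 library ended the call for 5 of the 6 libraries. In a table of read shares, a rise of 1 abundant miRNA lowers the share of the others. A change in the number of vesicles of a kind and a change in the miRNA per vesicle cannot be told apart.

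Among all 171 named miRNAs tested, 0.585% passed as higher and 0.0% as lower, and the 108 members held the 1 that passed. At an unadjusted p under 0.05 there were 8 members higher and 3 lower, beside 5.26% and 2.34% of all tested miRNAs. edgeR called 1 higher and 1 lower, and DESeq2 1 higher and 0 lower, with 12 and 4 miRNAs at an unadjusted p under 0.05. The median log2 difference was 0.08 over the members and 0.08 over all tested miRNAs, with 65 of 108 members above 0. Under the deposited scaling 54 of 108 and under quantile scaling 45 of 108 were above 0, so the balance of signs turned with the scaling.

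**Figure D2:**
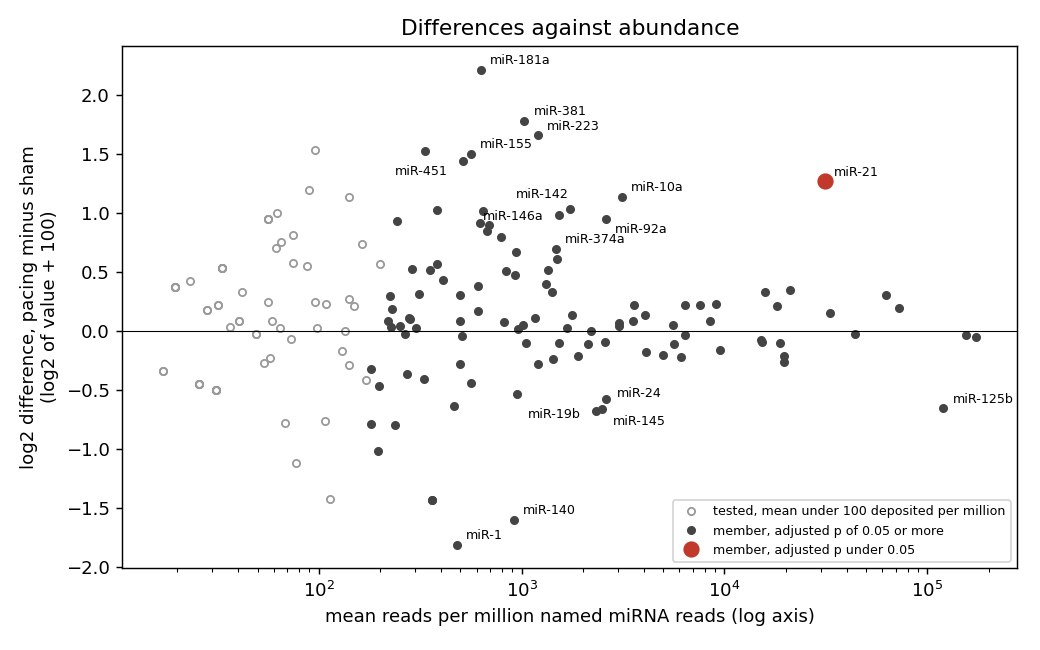
Log2 difference, pacing minus sham, against mean RPM (log axis) for 171 named miRNAs. miR-21 (red) is the 1 point with adjusted p under 0.05, and the scatter widens toward scarce miRNAs on the left.

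miR-125b, a relative of lin-4 and the third miRNA by abundance, came next. It stood at 116509, 89838 and 70315 RPM in pacing and 123834, 113328 and 205279 in sham. The arms overlapped, since pacing replicate 1 lay above sham replicate 2, and sham replicate 3 lay far above every other library. The log2 difference was -0.66 with a standard error of 0.19 taken from the trend (limma, adjusted p = 0.0559). It passed in 3 of 20 alternatives, which were edgeR (-0.68, adjusted p = 0.0494), median-of-ratios scaling (limma adjusted p = 0.0466) and a pseudocount of 500 (limma adjusted p = 0.0334). It did not pass with DESeq2 (adjusted p = 0.997), or in limma with TMM scaling (adjusted p = 0.156), the replicate block (adjusted p = 0.411) or quantile scaling (-0.26, adjusted p = 0.813). Nor did it pass in limma with no trend (adjusted p = 0.806) or with the 108 alone in the fit (adjusted p = 0.515). Without sham replicate 3 the log2 difference was -0.39. Its loci MIR125B-1 and MIR125B-2 are listed on chromosome 5 from 12097672 to 12097732 and on chromosome 31 from 13304980 to 13305040.

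Besides miR-21, 4 members had all pacing libraries above all sham libraries, and none of them passed. Including miR-21 these are 5 of 108, beside 3.51% of all tested miRNAs. miR-10a, encoded within a HOX cluster, stood at 7934, 3394 and 2227 RPM in pacing and 1492, 2057 and 1698 in sham (log2 difference 1.13, limma adjusted p = 0.274). Its paralog miR-10b stood at 3068 ± 932 against 2979 ± 979 (SD, n = 3 each), with a log2 difference of 0.04. miR-146a, a feedback inhibitor of innate immune signalling, stood at 1809.6, 1797 and 2578 in pacing and 1119, 771 and 1080.4 in sham (0.98, adjusted p = 0.63). miR-374a, an X-linked miRNA, stood at 1809.6, 2396 and 1406 against 1119, 1079.8 and 1080.4 (0.69, adjusted p = 0.944). miR-451, the red cell miRNA, stood at 835, 799 and 586 against 0, 411 and 463 (1.44, adjusted p = 0.63), with 15 reads in pacing and 11 in sham. The spread was narrow in sham for miR-10a and miR-374a and wider in pacing. Those sham values rest on few reads, 8, 40 and 11 for miR-10a and 6, 21 and 7 for miR-374a.

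Lower in all pacing libraries than in all sham libraries were 4 members, beside 2.34% of all tested miRNAs, and none of them passed. miR-140, best known from cartilage, stood at 139, 599 and 586 RPM in pacing and 1492, 1131 and 1543 in sham (log2 difference -1.60, limma adjusted p = 0.274). That is 9 reads against 40, a ratio of read shares of 0.340 (exact 95% interval 0.145 to 0.711). miR-145, a regulator of smooth muscle differentiation, stood at 2088, 1597 and 1992 against 2611, 2879 and 3704 (-0.66, adjusted p = 0.838). miR-24 stood at 1949, 2396 and 1875 against 3730.0, 2674 and 3087 (-0.58, adjusted p = 0.944). miR-19b, of the miR-17-92 cluster, stood at 1670.4, 1597 and 1875 against 2238, 2262 and 4322 (-0.68, adjusted p = 0.838). miR-140 had the widest gap between arms of these 4 relative to its level.

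**Figure D3:**
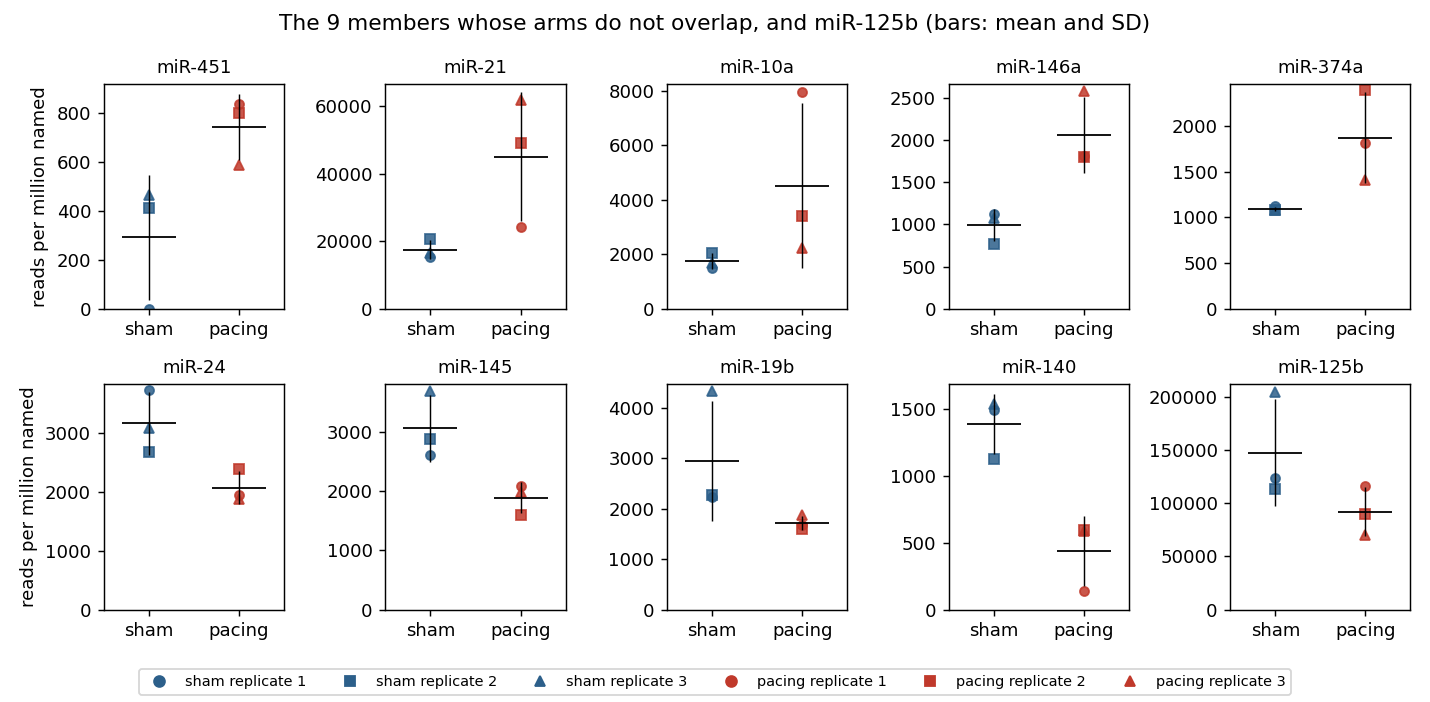
RPM in each library for the 9 members whose arms do not overlap and for miR-125b, with mean and SD (n = 3 per arm). miR-21 and miR-10a vary widely among pacing libraries, and miR-125b overlaps between arms.

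The other members with the smallest p did not pass in any of the 20 alternatives, and their arms overlapped. miR-181a, a miRNA of lymphocyte development, stood at 278, 1597 and 1172 RPM in pacing and 0, 719.9 and 0 in sham (log2 difference 2.21, limma adjusted p = 0.257). The 14 sham reads all came from sham replicate 2. miR-381, of an imprinted cluster, stood at 835, 2595 and 1172 against 932, 668 and 0 (1.78, adjusted p = 0.257). miR-92a stood at 3341, 3993 and 2813 against 2984, 1028 and 1543 (0.95, adjusted p = 0.536). A value of 0 here allows up to 3 reads, which is 463 RPM in sham replicate 3 and 559 in sham replicate 1, so fitted differences of such miRNAs depend on the added constant: that of miR-181a was 6.49 at a pseudocount of 1.

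No leukocyte miRNA passed the threshold. All 6 members of the list had a log2 difference above 0, from 0.04 for miR-342 upward. Their median was 1.01 beside 0.08 over the 108 members. That median ran from 0.77 at a pseudocount of 500 to 2.07 at a pseudocount of 1. miR-223, miR-146b and miR-155 each had a sham library without reads. The ratio of read shares was 1.19 for miR-223 (exact 95% interval 0.713 to 1.98) and 1.06 for miR-146b (0.494 to 2.20). For miR-142 it was 1.61 (1.04 to 2.51) and for miR-146a 2.37 (1.44 to 3.96). Read shares pool the reads of an arm, so sham replicate 2, with 19448 named reads, weighs most on the sham side. The ratios of arm means were 2.26 for miR-223, 1.59 for miR-146b, 2.17 for miR-142 and 2.08 for miR-146a. Under deposited and quantile scaling, with library weights, and without any 1 of pacing replicate 2 or the sham replicates, 5 of 6 were above 0. miR-142, a miRNA of blood cells, stood at 1253, 3793 and 2109 RPM in pacing and 932, 1748 and 617 in sham (limma adjusted p = 0.602). miR-223, a myeloid miRNA, stood at 696, 3394 and 938 against 373, 1851 and 0 (adjusted p = 0.274). Within each arm replicate 2 was the highest library for both. miR-155, induced in activated immune cells, stood at 418, 599 and 1523 against 0, 359.9 and 463 (limma adjusted p = 0.619). The other members were miR-146b, at 761 ± 552 against 480.0 ± 428, and miR-342, at 258 ± 132 against 244 ± 114 (SD, n = 3 each). The listed miR-150 was below the minimum, and its few reads were not higher in pacing. Summed over the 7 listed miRNAs in the table, the leukocyte level was 4733, 11579 and 7852 RPM in pacing and 2984, 5862 and 3087 in sham, and the arms overlapped. Pacing replicate 1 had the lowest leukocyte sum and the lowest miR-21 of its arm. The highest leukocyte sum of that arm was in pacing replicate 2 and the highest miR-21 in pacing replicate 3. The part of leukocyte RNA in the miR-21 difference was not tested.

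miRNAs linked with inflammatory signalling, a list that shares 4 members with the leukocyte list and holds miR-21 and miR-125b, had 7 of 8 members above 0 with a median of 1.13, and 6 of 8 under quantile scaling, without pacing replicate 3 or without sham replicate 1. Its exception was miR-125b. The median ran from 0.77 at a pseudocount of 500 to 2.15 at a pseudocount of 1. Summed over 11 listed miRNAs, the level was 146297, 149531 and 141685 RPM in pacing and 142671, 140271 and 226115 in sham. The arms overlapped, and miR-125b was the largest part of the sum in every library. Red cell miRNAs were scarce, at 703 to 1392 RPM in pacing and 186 to 617 in sham over 3 listed miRNAs. Those sums did not overlap. In sham replicate 1, the lowest, the sum was 1 read of miR-486, and miR-451 had none. miR-486 stood at 178 ± 215 against 182 ± 25.9 RPM (SD, n = 3 each).

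Heart and skeletal muscle miRNAs took 0.0969% of named reads in pacing and 0.201% in sham, with the reads of miR-133a counted again under miR-133c. miR-1, a leading miRNA of heart muscle, had 0, 4 and 0 reads in pacing and 4, 20 and 2 in sham, which is 0, 799 and 0 RPM against 746, 1028 and 309 (log2 difference -1.81, limma adjusted p = 0.487). miR-133a and miR-133c had identical reads in every library, 3 in pacing and 15 in sham, so the 2 rows count as 1 measurement (-1.44, adjusted p = 0.659). Of miR-499, miR-133b, miR-208a and miR-206, below the minimum, none exceeded 6 reads in a library. Their log2 differences were 0.74 for miR-499, 0.02 for miR-133b, 0.33 for miR-208a and -0.34 for miR-206. These values rest on 10 reads for miR-499 and 2 for each of the others. All 3 members, with miR-133a and miR-133c counting as 1 measurement, were below 0 under each of the 20 alternatives. Summed over the 7 listed miRNAs in the table, the level was 278, 2396 and 234 RPM in pacing and 2797, 2314 and 926 in sham. The sum counts the reads shared by miR-133a and miR-133c in both rows, and pacing replicate 2 overlapped with sham. In pacing replicate 1 the sum was 2 reads of miR-499. The ratio of read shares for miR-1 was 0.232 (exact 95% interval 0.0589 to 0.669).

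Other cell types were represented as follows. miR-199, miR-143 and miR-145, miRNAs of fibroblasts and smooth muscle, with miR-214 took 19% of named reads in pacing and 20.2% in sham. miR-143 stood at 18081 ± 2016 RPM against 19495 ± 3142 (SD, n = 3 each). The endothelial miR-126, encoded in EGFL7, stood at 14412 ± 3200.0 against 15739 ± 6004 (log2 difference -0.08). No miRNA is specific to adipocytes, and the 7 members linked with adipocyte differentiation or brown fat summed to 9697 ± 898 against 9700.4 ± 409.5. Of these 7, 3 were above 0 and 4 below (median -0.11). miR-103, the most abundant of them, stood at 5443 ± 1041 against 5825 ± 577, miR-378 at 1448 ± 572 against 1391 ± 1059, and miR-365 at 1404 ± 1017 against 1457 ± 208. Among miRNAs foreign to fat, the liver miRNA miR-122 stood at 970.0 ± 30.6 against 1055 ± 697, miR-192 at 297 ± 138 against 261 ± 109, and no epithelial miRNA reached the minimum.

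**Figure D4:**
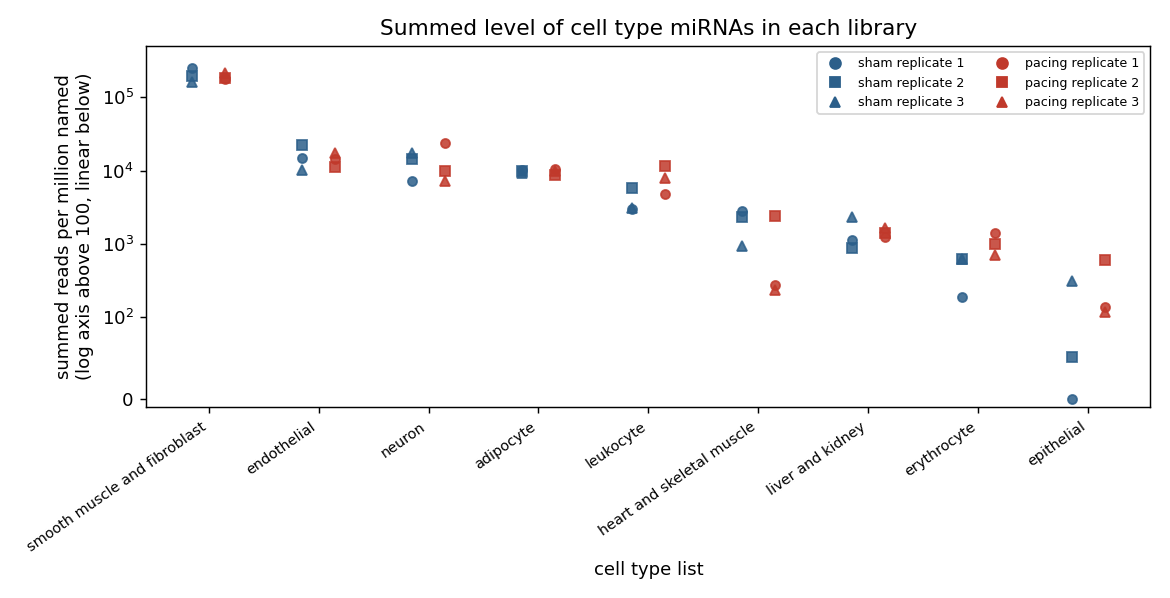
Summed RPM of 9 cell type lists in each library (log axis above 100, linear below). Smooth muscle and fibroblast miRNAs lead in every library, muscle miRNAs range from 234 to 2797 RPM, and the erythrocyte sums of pacing lie above those of sham.

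Neural miRNAs varied widely within arms. miR-9, a miRNA of neurons and their progenitors, stood at 19627, 6588 and 3516 RPM in pacing and 6154, 7559 and 13891 in sham (log2 difference -0.16, limma adjusted p = 0.994). miR-338, abundant in myelinating glia and taken after its values were seen, stood at 10718, 2595 and 1875 against 2984, 3342 and 8180.3 (-0.20, adjusted p = 0.994). Pacing replicate 1 and sham replicate 3 were the highest libraries of their arms for both. Sham replicate 3 was also the library highest in miR-125b. miR-218 stood at 2888 ± 823 against 3150.3 ± 1920.4, and miR-128 at 741 ± 398 against 549 ± 700.0 (SD, n = 3 each). The summed level of the 8 neural miRNAs in the table was 23803, 9782 and 7266 RPM in pacing and 7273, 14500.2 and 17595 in sham, and the arms overlapped. The neuronal miRNA miR-124 was not analysed here.

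Families listed by name or by shared transcript mostly stayed near the median of all members. The let-7 family held 26.1% of named reads, at 258817 ± 5142 RPM in pacing and 263080.1 ± 17671 in sham, with 2 of 7 members above 0 (median -0.03). Its members differ by few bases, so reads may have been split between them. The miR-30 family had 2 of 5 members above 0 (median -0.10), with miR-30a at 9971 ± 2966 against 8230.3 ± 698, and log2 differences of 0.14 for miR-30c and -0.10 for miR-30d. miR-29a, miR-29b and miR-29c had log2 differences of 0.21, 0.08 and -0.27, and miR-26a and miR-26b of 0.19 and -0.10. miR-148a, miR-152 and miR-148b had 0.34, 0.22 and 0.02, and all 3 were below 0 without sham replicate 3. The miR-23, miR-24 and miR-27 clusters had 4 of 5 members above 0 (median 0.21), with miR-27b at 0.21 and miR-27a at 0.51, and miR-24 below 0. Without sham replicate 1 none of the 5 was above 0. miR-221, studied in vascular cells, stood at 1882 ± 618 against 1657 ± 55.2.

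The miR-15/16 family had 5 of 5 members above 0 (median 0.38), with miR-16 at 0.30, miR-195 at 0.05 and miR-497 at 0.40. Without pacing replicate 2 it had 2 of 5 above 0, and under quantile scaling 3 of 5. In the miR-17-92 cluster and its paralogs 2 of 6 were above 0 (median -0.28), and its most abundant members split, with miR-92a at 0.95, miR-25 at -0.11 and miR-19b at -0.68. The group of miR-10, miR-99, miR-100 and miR-125 was listed together without regard to seed. In it 4 of 6 were above 0 (median 0.10), with miR-10a (1.13) and miR-125b (-0.66) at its ends. Between them lay miR-99a, at 17823 ± 6517 against 13773 ± 3987 RPM (SD, n = 3 each; 0.33), and miR-125a (-0.22). Of miRNAs often studied in atrial fibrillation, 9 of 16 were above 0 (median 0.08), from miR-1 at the low end to miR-155 at the high end, with miR-21 the 1 past the threshold.

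**Figure D5:**
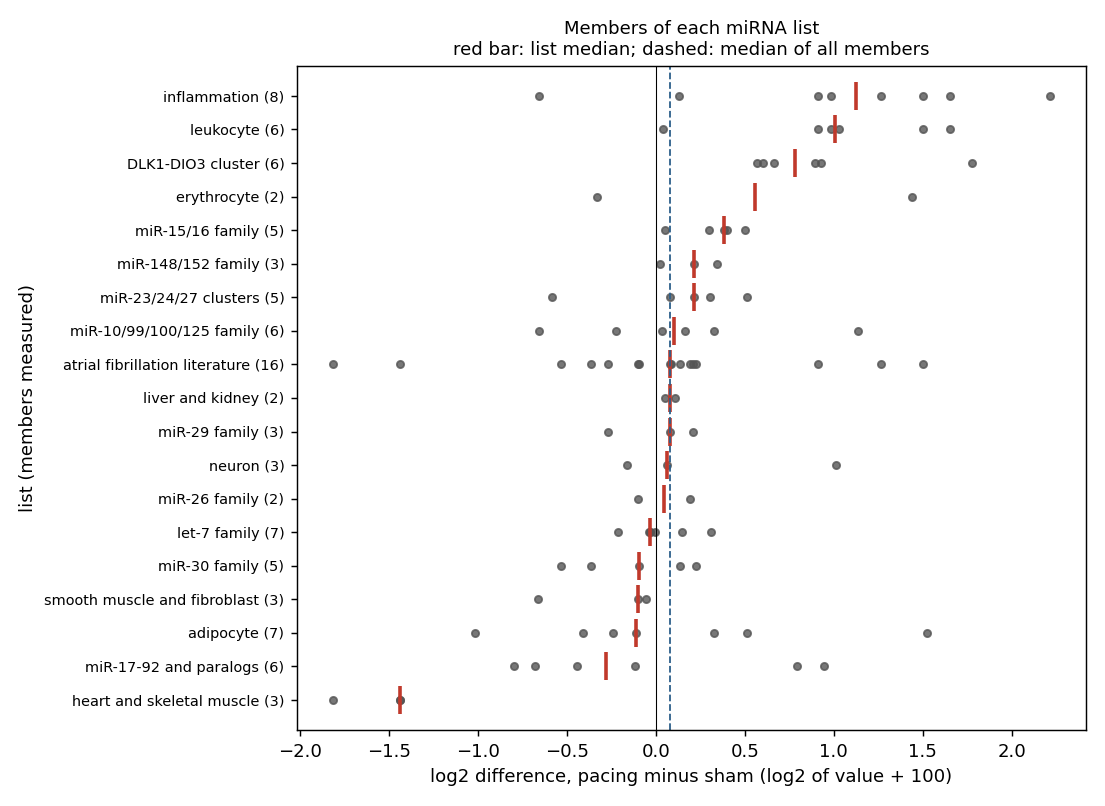
Log2 differences, pacing minus sham, of the members of 19 miRNA lists (points), with list medians (red bars) and the median of all 108 members (dashed line). Inflammation, leukocyte and DLK1-DIO3 members lie mainly to the right and the 3 muscle members, of which miR-133a and miR-133c coincide, to the left.

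Genomic neighbours were read from the RefSeq gene table of another dog assembly, for order only, where all 108 members matched a miRNA gene. Within 10000 bases of each other lay 46 of them, in 24 groups. The imprinted DLK1-DIO3 cluster had 6 of 6 members above 0 (median 0.78), a count of 5 of 6 without pacing replicate 1 or without sham replicate 1. Without sham replicate 3 the median was 0.40. The summed level was 6264, 9982 and 4922 RPM in pacing and 5595, 4216 and 2006 in sham, and the arms overlapped. miR-127 stood at 1392, 2595 and 1172 RPM in pacing and 2424, 926 and 463 in sham and miR-411 at 974, 1996 and 586 against 932, 823 and 309. None passed (limma, smallest adjusted p = 0.257, miR-381), and pacing replicate 2 was the highest library for both of these and for miR-381. The cluster's 10 other rows were below the minimum. miR-143 and miR-145, which are neighbours, had log2 differences of -0.10 and -0.66. The neighbours miR-15a and miR-16 were both above 0, and miR-1 and miR-133a both below. In some groups the signs were mixed. miR-24 lay below 0 and its neighbours miR-27b and miR-23b above it. The value of miR-24 covers loci on chromosomes 1 and 20, so it cannot be assigned to 1 of them. Those of miR-16 (chromosomes 22 and 34) and miR-1 (chromosomes 7 and 24) have the same limit.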

How the data were processed

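Exosome miRNA libraries from 3 pacing and 3 sham samples were analysed. The submitters' processing notes name featureCounts, STAR 2.5.3a and Trimmomatic 0.36 without roles. The aligner and reference of the miRNA reads are not named in these sources. The authors' deposited values, in a file named for TPM, are RPM: 100% of values were whole multiples of 1 step per library (tolerance 1e-06 of a step), so reads were recovered, and every library sums to 1000000. Rows with a dog miRNA name were rescaled to their sum in each library. Of these, 171 with a deposited mean of at least 10 RPM were tested with limma 3.58.1 (trend) in R 4.3.3 on log2(value + 100), a constant near 1 read, with Benjamini-Hochberg adjustment at 0.05. edgeR 4.0.16 and DESeq2 1.42.0 on recovered reads were alternatives. The whole multiples of sham replicate 1 rest on fewer low values than those of other libraries. The fit was also run on simulated reads, in which every miRNA had the same variation between libraries. Such reads cannot show whether a variance taken wholly from the trend holds for a given miRNA, miR-21 among them. From the authors' deposited hippocampal RPKM table only gene positions were used; its sequence names are those of CanFam3.1, and 61 of the 108 miRNAs matched a locus there.

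The miRNAs and lists were chosen with earlier results of these data known. The text names, among miRNAs reaching 100 RPM, those past the threshold, the 8 of smallest p in each direction, the 10 most abundant, and list members (all of a list of up to 4, otherwise the 3 most abundant). Members whose arms do not overlap, and any other miRNA given to complete a list, were added after their values were seen. Intervals and floors of 3 reads reflect counting error alone. Ratios of read shares pool the reads of each arm, and sham replicate 2 holds the largest part of the sham reads. Alternatives varied the pseudocount, filter, scaling, trend, weights and test, added a replicate block and left out each library.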

Additional observations from a re-analysis of the deposited data

How the results depend on the processing

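The 1 higher miRNA, miR-21, was also the 1 higher call under a pseudocount of 500, no filter, TMM and median-of-ratios scaling, edgeR, DESeq2, library weights and the replicate block. There were 0 higher calls, over all tested miRNAs and over the 108, at pseudocounts of 10 and 1, with the 108 alone in the fit, under deposited and quantile scaling and with no variance trend. There miR-21 stood at log2 differences of 1.27, 1.27, 1.27, 1.19, 1.09 and 1.27, with adjusted p (limma) of 0.0558, 0.24, 0.102, 0.809, 0.245 and 0.659. Leaving out 1 library gave 0 to 1 higher calls and 0 lower, and miR-21 from 0.99 (without pacing replicate 3) to 1.66 (without pacing replicate 1, the 1 library whose removal kept the call, adjusted p = 0.031). An arm then had 2 libraries. The unadjusted p was under 0.05 for 4 to 14 miRNAs over these fits, against 12 with edgeR and 4 with DESeq2. There was 1 lower call under a pseudocount of 500, median-of-ratios scaling and edgeR (miR-125b) and under quantile scaling (let-7b, -0.35). Signs turned for miR-199 (0.26 under quantile scaling, 0.0024 without pacing replicate 1, 0.13 without sham replicate 1; -0.21 to 0.13 without 1 library), let-7a (0.0038 and 0.0029 without sham replicates 2 and 3; -0.11 to 0.0038), let-7b (0.036 without pacing replicate 1, 0.055 without sham replicate 2; -0.096 to 0.055), let-7f (-0.19 under quantile scaling) and miR-148a (-0.053 without sham replicate 3, to 0.56 without sham replicate 2). With the replicate block 1 miRNA was higher and 0 lower (miR-21, adjusted p = 0.0199). Deviations of libraries of the same number correlated at -0.057, 0.16 and -0.067, so the numbers were not taken as pairs, and pacing replicates 1 and 3 correlated best with sham libraries of another number. The difference in share of reads on named miRNAs, -4.35 percentage points, ran from -13.5 to 6.87 without 1 library. The causes were not tested. Depth limits the 50 miRNAs under 1000 RPM, where 3 reads make 154 to 599 RPM.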
